A study of Sus scrofa with 33 samples.

Results

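The genes described here run the thyroid axis at the level of the pituitary. They are TSHB, TRHR, THRA, THRB, DIO1 and DIO2, 6 of the 11765 gene symbols on the array. Their probes were found through the gene name of the array design. 11 probes carried a member's symbol as that name, and 2 were found through their accession in a table of pig genes, because the design calls TSHB "TSH-BETA" and 1 THRB probe "C-ERBA-B1". That gave 13 probes, of which 10 probes for 5 genes were in the deposited table. DIO1 was not in it.

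Pituitary RNA of castrated male pigs was measured on 33 arrays with 1 array per pig. The animals entered a climatic room at 11 weeks of age and belonged to Large White (LW), Creole (CR) or their cross (F1). Thermoneutral (TN) pigs were kept at 24 °C. Heat stress (HS) pigs were exposed for up to 5 days to 32 °C, for which the sample labels give 30 °C. There were 5 LW TN, 6 LW HS, 5 CR TN, 6 CR HS, 6 F1 TN and 5 F1 HS arrays, each named below by its group and a number given in accession order. TN pigs were slaughtered before HS pigs, so temperature cannot be told apart from slaughter day and age, and the pigs included littermates. LW HS 3 carried Large White in its title and Creole in its breed field and was kept as LW. All levels are log2 quantile-normalised intensity, and a difference is the first group minus the second. On each array, 73.5% to 82.2% of the spots exceeded background clearly by the scanner's own call (well above background), and 0 were saturated. Each breed pair shares arrays with the other pairs, and p-values measure the spread between these animals. The study arranged each breed in 3 blocks of littermates and housed pigs in pens by breed. Litters and pens were not in the labels, so every test here counts each pig as independent. The p-values of breed comparisons therefore leave out the spread between litters and pens and may be too small.

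Thyroid-stimulating hormone is made by the thyrotrophs of the anterior lobe. It pairs a beta chain, encoded by TSHB, with the alpha chain CGA, which it shares with the gonadotrophins. Hypothalamic thyrotropin-releasing hormone acts on thyrotrophs through the receptor TRHR. Thyroid hormone closes the loop by repressing TSHB and TRHR through its nuclear receptors, encoded by THRA and THRB. DIO2 makes the active hormone triiodothyronine from thyroxine inside pituitary cells, while DIO1 is the deiodinase best known from liver, kidney and thyroid.

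The probes behind the results are designed oligonucleotides of 60 bases, given 5′ to 3′ as deposited. Those shown first are the TSHB probe and the TRHR, THRA and DIO2 probes with a limma adjusted p under 0.05 between LW and CR. TSHB and the other THRA probes did not reach it. The last lines are a THRB probe and its opposite-strand partner, with the 26 bases that pair with each other in capitals.
TSHB, probe A_72_P146666: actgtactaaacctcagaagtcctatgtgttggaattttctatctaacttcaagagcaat
TRHR, probe A_72_P186401: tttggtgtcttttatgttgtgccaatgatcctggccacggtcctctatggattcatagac
THRA, probe A_72_P088091: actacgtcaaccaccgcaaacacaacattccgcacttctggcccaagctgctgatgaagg
DIO2, probes O5493 and A_72_P165621: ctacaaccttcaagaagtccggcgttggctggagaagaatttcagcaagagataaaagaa
THRB, probe O10872: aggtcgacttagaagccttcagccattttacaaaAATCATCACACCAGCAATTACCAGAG
THRB, probe CUST_66_PI427286967: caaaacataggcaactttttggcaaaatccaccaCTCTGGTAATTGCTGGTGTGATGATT
Both DIO2 probes hold the same 60 bases at different places on the array, so they are repeat measurements of 1 target. Over the 33 arrays they correlated at r = 0.99 and differed by 0.57 ± 0.05 log2 units (SD). No other pair of member probes shared a stretch of 20 bases on either strand.

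The level of TSHB, the hormone's own chain, was compared first. Its probe was well above background on all 33 arrays. In LW it read 14.92, 8.55, 14.75, 15.56 and 14.95 in TN and from 13.69 to 14.63 with a median of 14.14 in HS. In CR it read 10.57, 15.86, 16.34, 15.95 and 15.72 in TN and from 15.46 to 16.28 with a median of 15.93 in HS. The F1 lay between them, from 15.15 to 15.90 with a median of 15.52 in TN and at 14.68, 14.76, 15.38, 14.56 and 16.20 in HS. Thus 2 arrays, LW TN 2 and CR TN 1, stood far below all others, while every remaining array read at least 13.69. By distance from the median of the own group they lay at -6.37 and -5.29, and the next lowest array, CR HS 3, lay at -0.47.

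**Figure D1:**
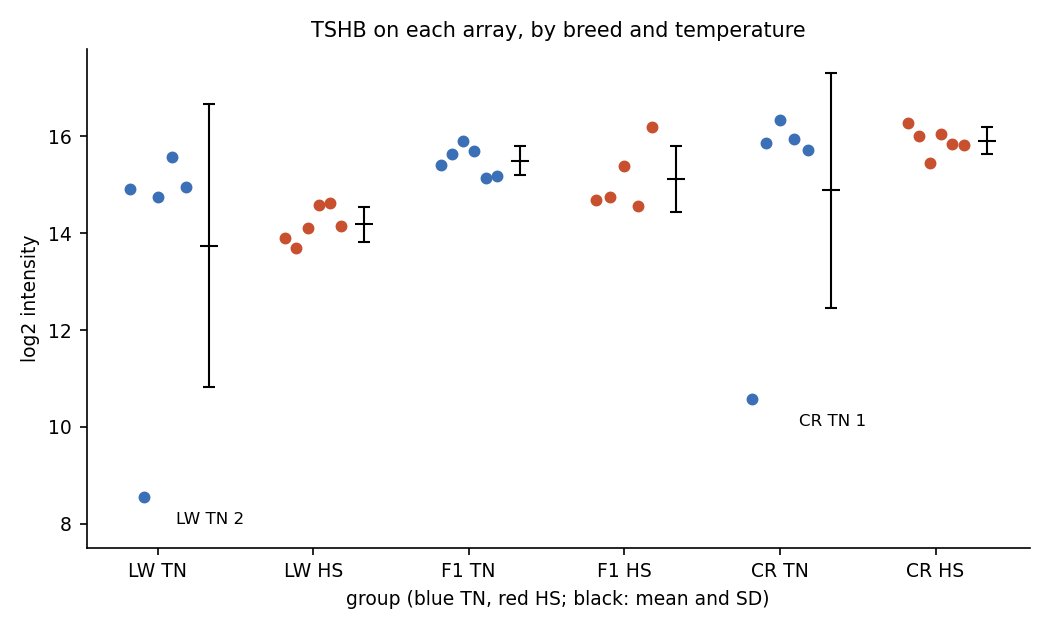
TSHB on each of the 33 arrays as log2 intensity, by breed and temperature. Points are arrays, and black bars give the mean and SD of a group. LW TN 2 at 8.55 and CR TN 1 at 10.57 stand apart, and the 6 arrays titled LW HS lie below the 6 CR HS arrays without overlap. Of all probes, 2.39% did not overlap between these groups.

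Breed pairs within a temperature were compared after seeing the data, and the HS pairs hold neither low array. With the arrays grouped by title, LW pigs had less TSHB message than CR pigs under heat, all 6 LW HS arrays lying below all 6 CR HS arrays. The medians differed by -1.79 log2 units, with an exact two-sided permutation p of 0.00216 for the rank sum, the smallest that 6 against 6 arrays allow, and 0.0130 after Benjamini-Hochberg adjustment over 6 breed pairs. That adjustment covers TSHB alone, and 2.39% of all probes separated LW HS from CR HS without overlap. Since the pairs were added after seeing the data, these p-values are a description. With LW HS 3, at 14.12, taken as Creole instead, the breeds overlapped, the medians differed by -1.69 and the exact permutation p was 0.0177 (adjusted 0.0635), so the call by ranks was lost, while by the difference of means the adjusted exact permutation p was 0.0390. At TN the medians differed by -0.94, but with both low arrays kept the exact permutation p was 0.0952 (adjusted 0.114). The F1 medians were above LW by 0.60 at TN (exact permutation p = 0.0303, adjusted 0.0606) and by 0.62 in HS (exact permutation p = 0.0173, adjusted 0.0519). F1 against CR gave exact permutation p-values of 0.247 at TN and 0.0823 in HS (adjusted 0.247 and 0.114). By the difference of means in place of ranks, the adjusted exact permutation p was 0.0260 for F1 against LW at both temperatures and 0.0130 for LW HS against CR HS, while it was 0.543 for LW TN against CR TN, 0.929 for F1 TN against CR TN and 0.0552 for F1 HS against CR HS. The LW TN mean was 13.75 with LW TN 2 and 15.04 without the low arrays, against 15.50 in F1 TN. In limma over all arrays F1 minus LW was 1.37 (SE 0.60, adjusted p = 0.276), and it was 0.79 without LW TN 2, given with no test. In limma over all arrays and 45667 probes, LW minus CR was -1.47 (SE 0.59), with an adjusted p of 0.153, so it missed the threshold of 0.05. With array weights it was -1.28 (limma adjusted p = 0.0305). Left out singly, arrays moved it between -1.95 (without CR TN 1) and -0.92 (without LW TN 2). Without both low arrays it was -1.41 (SE 0.18), or 2.66-fold. The values without a low array are given with no test because those arrays were chosen on TSHB itself. LW minus CR was negative on 5 of 5 slides, between -2.06 and -1.08, as plain breed means within a slide that mix both temperatures. Markers of other pituitary cells also separated these groups by title. Of the 17 marker lists, the mean level of 3 without TSHB did not overlap between LW HS and CR HS. Among single probes 2.39% did not overlap, which is no rate for list means, since a mean over genes spreads differently. With LW HS 3 taken as Creole all 3 lists overlapped. By title the mean level was lower in LW HS for somatotrophs (13.34 to 13.51 against 13.53 to 13.81). It was higher for gonadotrophs (13.57 to 14.05 against 13.21 to 13.48) and lactotrophs (14.40 to 14.61 against 14.10 to 14.36). Their part in the breed differences of TSHB and of the genes below was not tested. In whole tissue, fewer thyrotrophs and less RNA per thyrotroph cannot be told apart.

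Heat and TSHB were compared within each breed. All 6 LW HS arrays lay below the 4 LW TN arrays other than LW TN 2, and the medians differed by -0.78. The exact permutation p for the rank sum over all 11 LW arrays was 0.126, adjusted to 0.370 over 3 breeds. In the F1 the medians differed by -0.76, with an exact permutation p of 0.247 (adjusted 0.370), and in CR by 0.07 (p = 0.792, exact). The smallest p that 5 against 6 arrays can give is 0.00433. In limma, HS minus TN over all breeds was 0.36 (SE 0.49, adjusted p = 0.866). Without the low arrays the value turned to -0.43 (SE 0.15), and within LW it was -0.86, in F1 -0.38 and in CR -0.05, again with no test.

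The low arrays were then examined for what else differed there. TSHB was 83.6-fold lower on LW TN 2 and 40.5-fold lower on CR TN 1, each against the median of the other arrays of its group. The arrays were chosen on this value, so its size there is a description. No other of the 45667 probes lay 3 or more log2 units below that median on both arrays. Of the other thyrotroph markers, TRHR lay at -0.90 and -0.31 and CGA at -0.08 and -0.22, below the range of the other arrays on both. GATA2, a transcription factor of thyrotrophs and gonadotrophs, lay at 0.19 on LW TN 2 and -0.74 on CR TN 1, and DIO2 at -0.38 and 0.05. So 4 of the 9 member probes other than TSHB, TRHR and the 3 THRB probes, were below the other arrays on both, against 17.5% of all probes. In the wider pathway list described below, 10 of 34 genes were below and 5 above the other arrays on both. CRYM, which binds thyroid hormone in the cytosol, was the farthest from the other arrays, at 2.68 and 3.21. KLF9, a factor induced by thyroid hormone, lay at 1.08 and 0.41, and PCSK1, a prohormone convertase, at -1.16 and -1.07. These 3 genes were chosen after their values were seen.

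**Figure D2:**
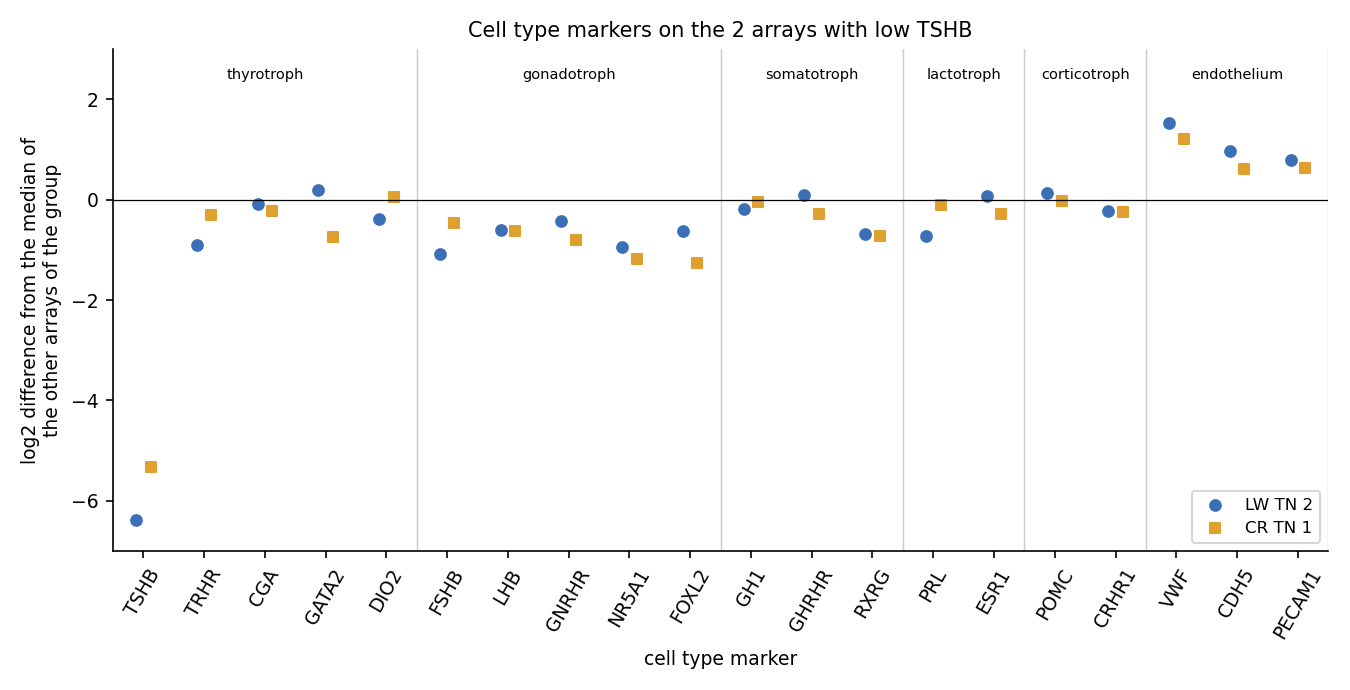
Log2 difference of LW TN 2 (circles) and CR TN 1 (squares) from the median of the other arrays of their group, for markers of 6 pituitary cell types. TSHB lies at -6.39 and -5.34, the 5 gonadotroph markers lie below 0 and the 3 endothelial markers above 0 on both arrays.

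Markers of other cells moved on the same arrays. The 5 gonadotroph markers, the hormone chains FSHB and LHB, the receptor GNRHR and the factors NR5A1 and FOXL2, were all below the other arrays on both, by 0.43 to 1.25 log2 units in size. The 3 endothelial markers were above on both, with VWF, a clotting factor of vessel walls, at 1.52 and 1.21. For all probes, 17.5% were below and 16.3% above on both arrays. The mean level of the gonadotroph list was 13.02 on LW TN 2, where the rest of the group read 13.67 to 13.95, and 12.57 on CR TN 1, where the rest read 13.26 to 13.67. For endothelium it was 11.57 against 10.42 to 10.53 and 11.21 against 10.21 to 10.80. Of the 17 marker lists, 3 had a mean below the other arrays on both, gonadotroph, somatotroph and thyrotroph, the last of which holds TSHB and so was low by the choice of arrays. There were 4 with a mean above on both, namely endothelium, intermediate lobe, cartilage and bone, and folliculostellate. Not all members of these lists moved alike. In the folliculostellate list only S100B was above on both (0.72 and 0.75), and ALDH1A1 lay at -0.43 on LW TN 2. In the intermediate lobe list only PCSK2 was above on both (1.60 and 1.01), with PAX7 at 0.09 and -0.06. ACAN of the cartilage and bone list lay at -0.24 on CR TN 1, and GHRHR of the somatotroph list at 0.10 on LW TN 2. The somatotroph hormone GH1 lay at -0.18 and -0.04 and corticotroph POMC at 0.14 and -0.03. These probes ranked 7 and 8 by mean intensity, a range in which a change can be compressed. Both arrays shared slide 2, which holds 7 arrays, and their median intensities of 152.5 and 149 were within the series. TSHB on the other 5 arrays of that slide read 14.76, 16.01, 15.40, 13.91 and 15.38. The part of cell composition in the low TSHB was not tested. The posterior lobe genes AVP (16.78 to 17.15) and OXT (15.34 to 15.90) were well above background on all 33 arrays, although the study describes the tissue as anterior lobe.

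Breeds were compared for the receptors and the deiodinase with all arrays. Between LW and CR, 5 of the 10 member probes passed the threshold, for TRHR, DIO2 (both probes), 1 of 3 THRA and 1 of 3 THRB probes, against 6.65% of all probes. All 5 were lower in LW, where 3.05% of all probes were called lower and 3.61% higher. The median difference of the 10 probes was -0.29, and that of all probes -0.0011. The probes are not independent, since several read 1 gene. Without the low arrays 6 of the 9 probes other than TSHB passed, and with slide as a block 6 of 10. All probes called between LW and CR ranged from 1827 to 4480 over the settings tried, against 3039 here. The share of 6.65% is therefore no comparison for these counts.

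TRHR, the receptor that receives the hypothalamic signal, was 1.39-fold lower in LW. Its levels in LW TN were 7.67, 6.43, 7.36, 7.30 and 7.17, and in LW HS they ran from 7.03 to 7.69 with a median of 7.30. In CR TN they were 7.38, 7.97, 7.58, 7.60 and 7.79, and in CR HS 7.62 to 7.98 with a median of 7.79. The breeds overlapped, but 10 of 11 LW arrays lay below the CR mean of their temperature. LW minus CR was -0.48 (SE 0.10, limma adjusted p = 0.00351), and within slides it ran from -0.78 to -0.23. The F1 mean of 7.52 ± 0.23 (SD, n = 11) fell between LW at 7.26 ± 0.34 and CR at 7.74 ± 0.19, and passed against neither in limma (adjusted p = 0.189 and 0.269).

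DIO2, the activating deiodinase, was lower in LW than in both other breeds. On probe O5493, LW TN arrays read 11.86, 11.48, 11.85, 11.86 and 11.52 and LW HS arrays 11.82 to 12.45 with a median of 11.94. CR TN arrays read 12.35, 12.18, 12.36, 12.32 and 12.29, and CR HS arrays 12.11 to 12.64 with a median of 12.24. Every LW array except LW HS 4, at 12.45, lay below the lowest CR array at 12.11. LW HS 3, whose breed field says Creole, read 11.94. If it is counted as Creole, LW HS 1 at 12.02 and LW HS 6 at 11.95 also lie above the lowest Creole array. LW minus CR was -0.44 (SE 0.10, 1.36-fold, limma adjusted p = 0.00386) and its repeat probe gave -0.41 (adjusted p = 0.00684). Within slides the difference ran from -0.52 to -0.29.

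In the F1, DIO2 read 11.83 to 12.46 with a median of 12.12 at TN and 12.11, 12.50, 12.38, 12.31 and 12.98 in HS. F1 minus LW was 0.43 (SE 0.10, limma adjusted p = 0.0224) on O5493 and 0.45 (adjusted p = 0.0169) on the repeat probe, with 11 of 11 F1 arrays above the LW mean of their temperature. These 2 of 10 member probes stood against 1.48% of all probes, 0.55% being called higher in F1. Without the slide that held the low arrays the O5493 value was again 0.43, but its limma adjusted p of 0.0570 missed the threshold of 0.05. F1 minus CR was -0.02 (SE 0.10) and 0.03 (SE 0.10), and neither passed (adjusted p = 0.953 and 0.899).

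**Figure D3:**
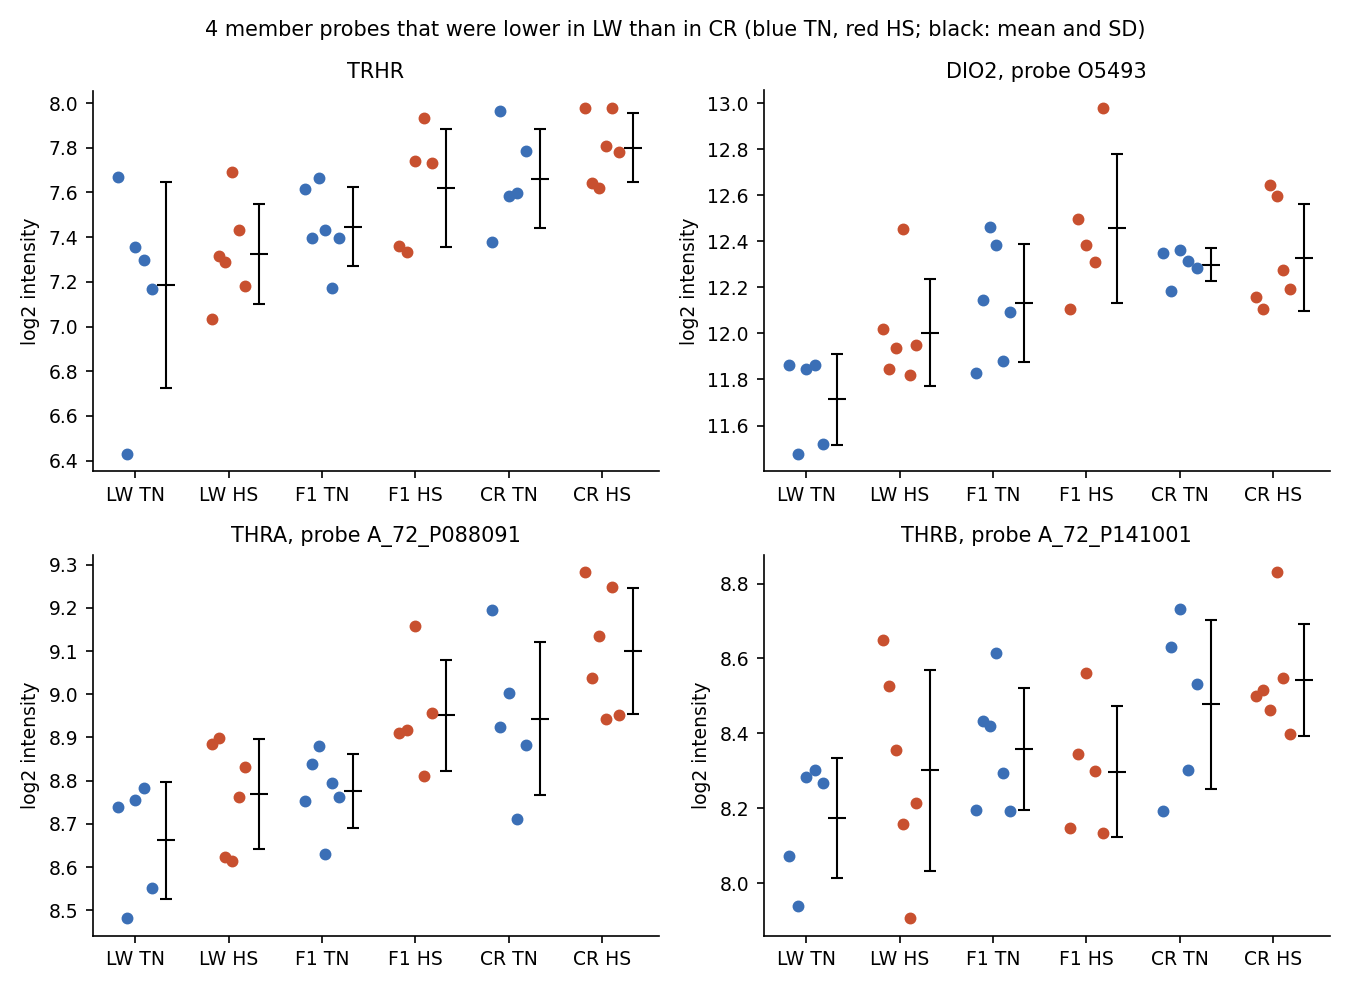
Log2 intensity on each array for TRHR, DIO2, THRA and THRB, by breed and temperature, with the mean and SD of each group in black. The group mean of THRA probe A_72_P088091 is lowest in LW TN and highest in CR HS, DIO2 is lowest in LW TN at 11.71 ± 0.20, and the lowest TRHR point is LW TN 2 at 6.43.

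THRA, the alpha thyroid hormone receptor, had 3 probes, all lower in LW than in CR. The probe that passed, A_72_P088091, read 8.74, 8.48, 8.75, 8.78 and 8.55 in LW TN and 8.61 to 8.90 in LW HS. In CR it read 9.20, 8.92, 9.003, 8.71 and 8.88 at TN and 8.94 to 9.28 in HS. By title the HS arrays of the breeds did not overlap, which also held for 2.39% of all probes. The TN arrays overlapped only through the CR array at 8.71. LW HS 3, whose breed field says Creole, read 8.62, and the HS arrays overlap if it is counted as Creole. LW minus CR was -0.31 (SE 0.06, limma adjusted p = 0.00082). The brightest probe, O11594, gave -0.15 (SE 0.07, adjusted p = 0.200) and A_72_P364005 gave -0.16 (SE 0.06, adjusted p = 0.0881).

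THRB, the receptor that carries most of the feedback on TSHB, split by probe. A_72_P141001 read 8.24 ± 0.23 in LW and 8.51 ± 0.18 in CR (SD, n = 11), a difference of -0.27 (SE 0.08, limma adjusted p = 0.0393). That call was lost when any of 12 single arrays was left out (adjusted p up to 0.0851), and with LW HS 3 taken as Creole (adjusted p = 0.0642). The brightest probe, O10872, and A_72_P305869 gave only -0.06 (SE 0.09, adjusted p = 0.812) and -0.04 (SE 0.08, adjusted p = 0.865) between LW and CR.

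On the brightest probe the F1 was the highest breed instead. O10872 read 8.74 to 9.19 in F1 TN and 9.13, 9.36, 8.98, 9.21 and 9.28 in F1 HS, against breed means of 8.78 ± 0.32 in LW and 8.84 ± 0.22 in CR. F1 minus LW was 0.34 (SE 0.09, limma adjusted p = 0.0551) and F1 minus CR 0.27 (SE 0.09, adjusted p = 0.0655), both just above the threshold of 0.05. With slide as a block the same differences were 0.38 (adjusted p = 0.00698) and 0.31 (adjusted p = 0.00789). A_72_P305869 gave 0.24 for F1 minus LW (limma adjusted p = 0.145) and 0.20 for F1 minus CR (adjusted p = 0.148). A_72_P141001 went the other way against CR, at -0.18 (SE 0.08, limma adjusted p = 0.193), and gave 0.09 against LW (adjusted p = 0.702). Between F1 and CR, 0 of 10 member probes passed, against 6.86% of all probes (3.48% higher and 3.39% lower in F1), and 4 of 10 had an unadjusted p under 0.05, against 21.8% of all probes.

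**Figure D4:**
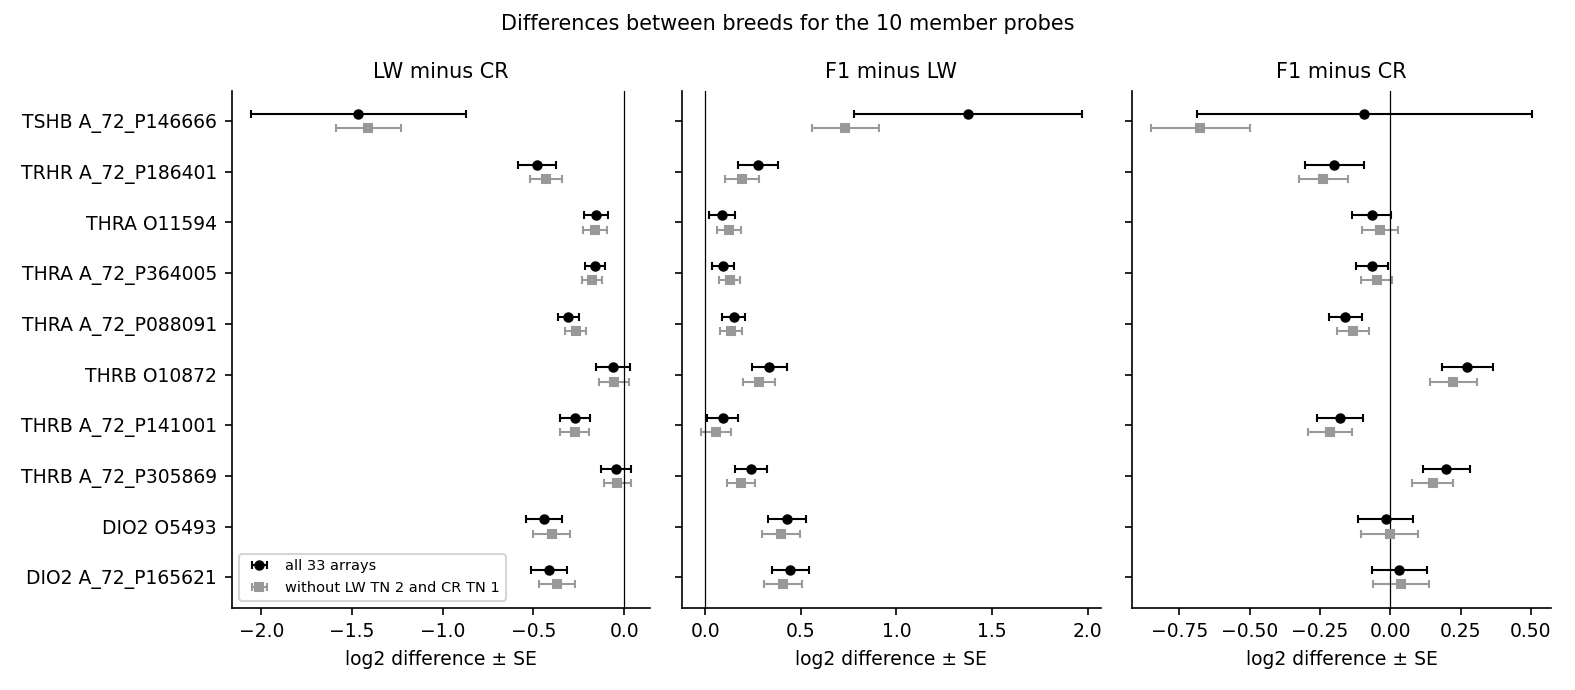
Log2 differences between breeds with SE bars from limma for the 10 member probes, from all 33 arrays (black circles) and without LW TN 2 and CR TN 1 (grey squares). All 10 values are below 0 for LW minus CR and above 0 for F1 minus LW, and the THRB probes O10872 and A_72_P305869 are above 0 for F1 minus CR.

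In the order of the 6 group means, neighbouring groups overlapped in range for all 50 neighbouring pairs over the 10 probes with all arrays. For TSHB, LW TN and LW HS overlapped only through LW TN 2, and CR TN and LW HS only through CR TN 1. TSHB ran from CR HS at 15.91 down to LW TN at 13.75, and TRHR from CR HS at 7.80 to LW TN at 7.18. DIO2 (O5493) ran from F1 HS at 12.46 to LW TN at 11.71, and THRB (O10872) from F1 HS at 9.19 to LW TN at 8.57. LW TN was the lowest group for each of these with all arrays. Without the low arrays, TSHB ran from CR TN at 15.97 down to LW HS at 14.18, with LW TN at 15.04, and TRHR in LW TN rose to 7.37, above LW HS at 7.32. DIO2 and THRB kept LW TN lowest, at 11.77 and 8.66.

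Heat was compared next. Over all breeds, 0 of the 10 member probes passed in limma, against 0.0219% of all probes (0.00438% higher and 0.0175% lower in HS), and the smallest adjusted p was 0.294. All 10 values were positive with all arrays. At an unadjusted p under 0.05 there were 5 of 10, against 8.77% of all probes, namely both DIO2 probes, THRB O10872 and A_72_P305869, and THRA A_72_P088091. HS minus TN was 0.21 (SE 0.08) for DIO2 on O5493, higher in 12 of 17 HS arrays than the TN mean of their breed (adjusted p = 0.386). For THRB on O10872 it was 0.22 (SE 0.08, 14 of 17 arrays, adjusted p = 0.326), and for THRA on A_72_P088091 0.15 (SE 0.05, 15 of 17 arrays, adjusted p = 0.294). LW TN 2 and CR TN 1, the low arrays, are both TN arrays. From the median of the other arrays of their group, O10872 lay there at -0.43 and -0.53, and A_72_P305869 at -0.43 and -0.57. Both arrays thus lower the TN means of these THRB probes and raise their HS minus TN. DIO2 on O5493 and THRA on A_72_P088091 lay below the other arrays on LW TN 2 only. TRHR gave 0.15 (SE 0.09, adjusted p = 0.646), and 0.07 without the low arrays, where its value within LW turned to -0.05.

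Within breeds and for the interaction of breed and temperature, limma called 0 member probes and 0 of all 45667 probes. At an unadjusted p under 0.05 there were 3 of 10 member probes within LW (6.80% of all probes), 3 within F1 (5.68%), 0 within CR (5.85%) and 0 for the interaction (4.25%). The 3 within F1 include both copies of the DIO2 target. Within LW, THRB on O10872 differed by 0.37 (SE 0.13), with 6 of 6 HS arrays above the TN mean (adjusted p = 0.642), and DIO2 on O5493 by 0.29 (SE 0.14). Within F1 the values were 0.18 (SE 0.13) for THRB and 0.32 (SE 0.14) for DIO2. Within CR they were 0.10 (SE 0.13) and 0.03 (SE 0.14), and without the low arrays the THRB value within CR turned to -0.02, while within LW it was 0.28. A difference between breeds in the response to heat was not detectable, with a smallest adjusted interaction p of 0.926 among the members.

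**Figure D5:**
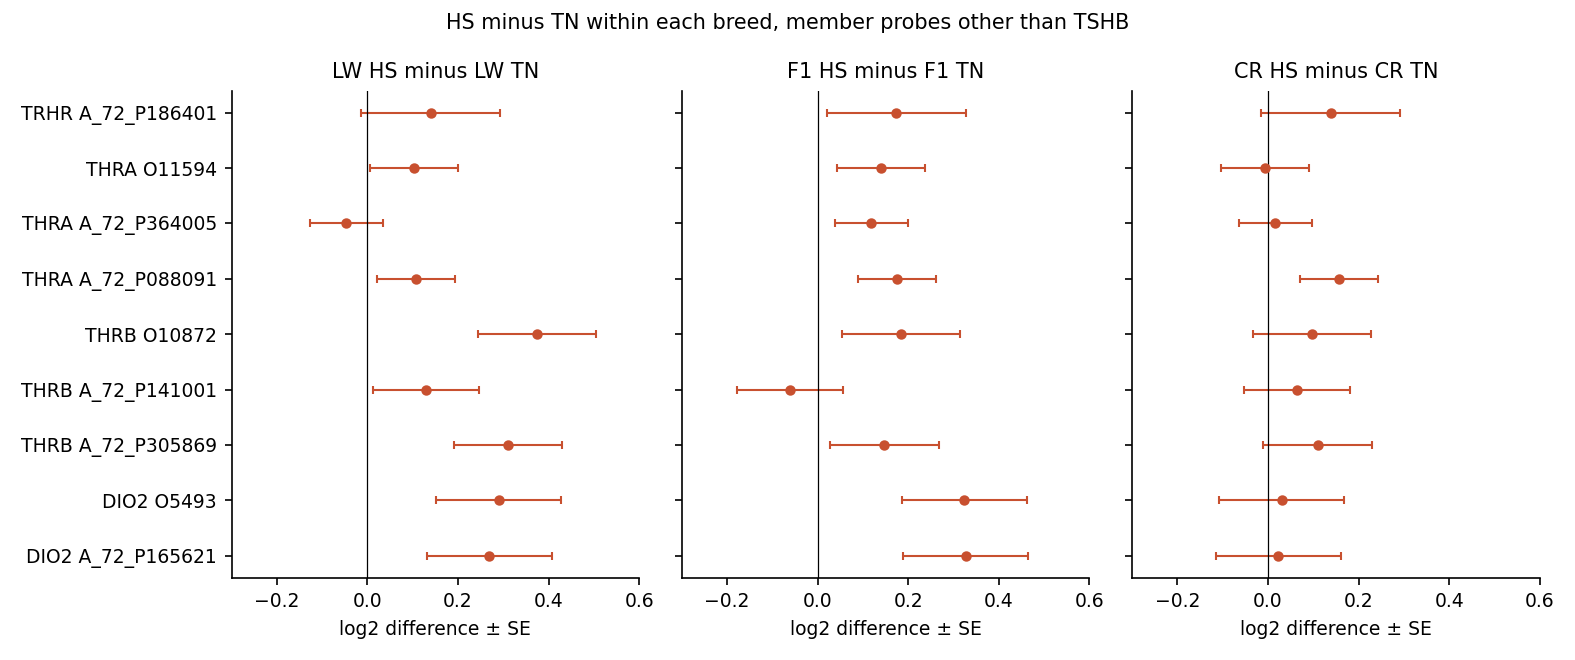
HS minus TN within each breed as log2 difference with SE bars from limma, for the 9 member probes other than TSHB. DIO2 and the THRB probe O10872 lie above 0 in LW and F1, and the DIO2 values in CR are 0.03 and 0.02.

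DIO1, the deiodinase of liver and thyroid, had 2 probes, neither in the deposited table. A_72_P035401 was well above background on 0 of 33 arrays, with a median intensity of 32.5 against a local background of 39. A_72_P336168 was well above background on 1 array, LW HS 2, at an intensity of 48. Its median was 34.5 against a background of 32. No fold is given for DIO1. The THRB probe CUST_66_PI427286967 is also outside the table. It pairs in part with O10872 and so would read the opposite strand. It was well above background on 23 of 33 arrays, but at intensities of only 33.5 to 72 against a median local background of 42.

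Members were also compared for how they varied between pigs of 1 group. After each group's mean was subtracted, the within-group SD of TSHB was 1.504 log2 units, larger than in 99.97% of probes, and 0.40 without the low arrays, larger than in 94.3%. For TRHR it was 0.26, for DIO2 0.23 (O5493), and for the THRA probes 0.12, 0.13 and 0.16. Relations were computed for all 10 pairs of the brightest probes, with p-values adjusted over the 6 pairs without TSHB, over 31 arrays, since the low arrays form a cluster of their own. TSHB and DIO2 gave Pearson's r = 0.49 and Spearman's rho = 0.36, but r was 0.31 without the 2 arrays farthest in TSHB and 0.26 over all 33 arrays. No p is given for pairs with TSHB, since the low arrays were chosen on it. THRB and DIO2 gave r = 0.51 (permutation p = 0.00316, adjusted 0.0190) and rho = 0.45 (permutation p = 0.0105, adjusted 0.063), with r = 0.45 without the 2 farthest and 0.46 over all 33 arrays. The permutation treated arrays as exchangeable, although they share slides and normalisation and include littermates, so these p-values are a description only. O10872 alone stood for THRB here. Over the 31 arrays it correlated with THRB probe A_72_P141001 at r = 0.08 and with A_72_P305869 at r = 0.54. TSHB and TRHR gave r = 0.31 and rho = 0.29, and r = 0.66 over all 33 arrays. The other 7 pairs had r between -0.10 and 0.26, and the smallest adjusted p among those without TSHB was 0.297.

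The genes most like TSHB in this variation were ranked among 10246 genes, as a description. Over 33 arrays the first 3 were ESRP1 (r = 0.87), RUNDC3A (0.82) and MOGS (0.80). TRHR had r = 0.66 there and 0.31 over the 31 arrays other than the low ones. Over those 31 arrays the first 5 were SSTR2 (0.75), CELF2 (0.69), MAPK10 (0.69), PPIL2 (0.69) and POMT1 (0.67). SSTR2 encodes a receptor for somatostatin, which restrains TSH release. Its probe was dim, well above background on 29 of 33 arrays with a median intensity of 48 against a local background of 39, and by Spearman's rho it ranked 7.

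The wider thyroid pathway was read from a list of 44 genes for thyrotroph factors, hormone transport, receptor partners and TSH processing, of which 34 were in the table. By the brightest probe of each gene, 1 of 34 passed between LW and CR, 1 between F1 and LW, 3 between F1 and CR and 0 between HS and TN, against 6.65%, 1.48%, 6.86% and 0.0219% of all probes. The list's median differences were 0.01, 0.03, 0.04 and 0.02. POU1F1, the factor needed for thyrotrophs, somatotrophs and lactotrophs, was lower in LW, at 11.25 ± 0.27 against 11.59 ± 0.20 in CR (SD, n = 11). Its difference was -0.34 (SE 0.10, limma adjusted p = 0.0363), and 1 other of its 4 probes passed (A_72_P413723, -0.36, adjusted p = 0.0135). Without the low arrays POU1F1 kept -0.31 (adjusted p = 0.0334).

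In 3 further genes the F1 was higher than 1 or both of the other breeds. PITX1, a pituitary homeobox factor, was higher in F1 than in LW by 0.29 (SE 0.07, limma adjusted p = 0.0385) and than in CR by 0.24 (SE 0.07, adjusted p = 0.0435). The latter was 0.19 (adjusted p = 0.0879) without the low arrays. EYA3, a transcriptional coactivator, was higher in F1 than in CR by 0.32 (SE 0.08, adjusted p = 0.0181), and SSTR5, another somatostatin receptor, by 0.50 (SE 0.15, adjusted p = 0.0389). Their second probes gave 0.26 (adjusted p = 0.0521) and 0.49 (adjusted p = 0.0537). Against LW the F1 difference was 0.08 for EYA3 (adjusted p = 0.754) and 0.31 for SSTR5 (adjusted p = 0.358). CGA, the alpha chain, read 18.78 to 19.12 over all arrays and GATA2 10.68 to 11.89, and neither passed in any comparison. CGA ranked 11 of 45667 probes by mean intensity, a range in which a change can be compressed.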

How the data were processed

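Spot intensities came from Agilent Feature Extraction 10.10.1.1 (submitters' processing notes). Per the file headers, the scanner output holds 1 colour of raw intensity with its local background. From the median intensities, without background correction, the authors made log2 quantile-normalised values for 45667 probes. These were analysed as deposited. How far the number of arrays and signal over background limited the precision was not tested. Each member probe in the deposited table was well above background on all 33 arrays.

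Differences were tested with limma 3.58.1 (R 4.3.3), with breed and temperature as fixed effects, or 1 mean per group for within-breed and interaction tests. Benjamini-Hochberg adjustment covered all 45667 probes, with a threshold of 0.05. The test was checked on simulated data. Pen, slaughter day and parents, random effects in the study's model, could not be fitted without labels for them. Exact permutation tests and permutation tests of correlations (100000 resamples) used scipy 1.17.1 in Python 3.11.15.

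Probes were named by the design's gene name or an accession in a RefSeq gene table (names only). The brightest probe stood for a gene in the pathway list, while all member probes were reported. Arrays were called low where TSHB lay 3 or more log2 units below the group median. Pathway genes were named where they passed in any comparison, with CGA, POU1F1 and GATA2 whatever their values. The 5 genes most like TSHB had the highest Pearson's r of deviations from group means. A few genes that these rules name are not reported here. Members and lists were chosen with earlier results of these data known. Alternatives covered background correction, scaling, a filter on dim probes, slide, array weights, the breed of LW HS 3 and each array left out. Leaving out the slide of the low arrays, breed pairs of TSHB within a temperature (by title and with LW HS 3 as Creole) and within-slide values were added after seeing the data.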

Additional observations from a re-analysis of the deposited data

Results flagged for a closer look

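In 6 of 60 sets of arrays (10 member probes in 6 groups) 1 array lay apart from the rest of its group, where chance alone would give about 1 in 20. The count is not read against that rate, since 2 of the 6 are the TSHB values by which the low arrays were chosen and 2 are the same DIO2 target. TSHB read 8.55 on LW TN 2, where the other LW TN arrays read 14.75 to 15.56, and 10.57 on CR TN 1, where the other CR TN arrays read 15.72 to 16.34. On LW TN 2 the THRA probe A_72_P364005 was high instead, at 13.90 against 13.56 to 13.66. DIO2 was high on LW HS 4 on both repeat probes, at 12.45 against 11.82 to 12.02 on O5493 and 11.86 against 11.24 to 11.46 on A_72_P165621, which are readings of 1 target in 1 animal. The THRB probe A_72_P141001 read 8.83 on CR HS 4 against 8.40 to 8.55. Outside the deposited table, the opposite-strand THRB probe CUST_66_PI427286967 was well above background on 23 of 33 arrays.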

How the results depend on the processing

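No analysis paired by litter or pen was possible because the labels used here give neither. Between LW and CR the count of member probes called stayed between 4 and 7 under all settings, and 0 were called for heat under any. Between F1 and LW it rose from 2 to 4 with slide as a fixed block and with array weights, and was 1 without the slide of the low arrays. Between F1 and CR it rose from 0 to 2 with normexp and with slide fixed, to 1 with 75th percentile scaling, slide as a random block or array weights, and ranged from 0 to 2 when single arrays were left out. THRB O10872 was called in each of those 5 settings. All probes called also moved with the setting, from 1827 to 4480 for LW against CR. They ran from 367 to 2568 for F1 against LW and from 1861 to 4630 for F1 against CR. The member counts are not set against the share of all probes in the same setting, so their moves are not read as results about the members.

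TSHB turned sign by setting. HS minus TN was -0.43 without both low arrays, -0.42 without their slide and -0.20 with array weights, and ranged from -0.041 (without LW TN 2) to 0.50 without single arrays. Within LW it was -0.86, -0.81 and -0.55 under the first 3 settings and -0.86 (without LW TN 2) to 0.89 without single arrays. Within CR it was -0.055 and -0.075 under the first 2, and -0.055 (without CR TN 1) to 1.39 without single arrays. Within F1 it was 0.19 with slide fixed. F1 minus CR was 0.077 with slide fixed, 0.023 with LW HS 3 as Creole and -0.61 (without CR TN 1) to 0.029 without single arrays. LW minus CR stayed negative.

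Values near 0 also turned. For F1 minus CR, DIO2 O5493 was 0.0094 with percentile scaling, 0.021 with LW HS 3 as Creole and -0.081 to 0.018 without single arrays, and its repeat probe -0.028 to 0.069. HS minus TN of THRB A_72_P141001 was -0.016 with array weights, -0.0018 without both low arrays and -0.059 without their slide. All probes called for HS against TN numbered 10, with a range of 2 to 92. For F1 against LW they numbered 674, with a range of 367 to 2568, for F1 against CR 3135 (1861 to 4630) and for LW against CR 3039 (1827 to 4480). The causes were not tested.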
